A study of Rattus norvegicus with 30 samples.

Results

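The RNA of 6 genes that carry, store, release or take up iron (Ftl1, Fth1, Tfrc, Scara5, Hmox1 and Slc40a1) was followed in cultured rat embryonic fibroblasts kept without serum for up to 16 days. They were chosen by name for their roles in ferritin, heme and iron handling, with earlier results of these data known. Counts of the 6 beside shares of all genes are therefore descriptions. All 6 were found by symbol among the 17353 genes of the deposited table, and none was left out. The cells were the REF line, labelled as not transformed. The 10 groups were unstarved cells (control) and cells starved for 2, 3, 4, 6, 8, 10, 12, 14 or 16 days, with 3 replicates each and 30 libraries in all. The series asks how deep quiescence becomes as starvation lengthens. The replicates are described as biological, with no word on how the cultures were grown or handled, so p-values measure the spread between these libraries of 1 line.

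Cells take up iron mainly as transferrin bound to the transferrin receptor (Tfrc) and keep the surplus inside ferritin, a hollow shell built of heavy chains (Fth1), which oxidise the iron, and light chains (Ftl1), which help it mineralise. Scara5 is a scavenger receptor that can bring in extracellular ferritin, heme oxygenase 1 (Hmox1) opens the heme ring and frees its iron, and ferroportin (Slc40a1) carries iron out of the cell. Iron regulatory proteins bind hairpins in several of these mRNAs: when iron is scarce they hold back ferritin translation and stabilise the Tfrc message. An RNA level can carry the second kind of control but not the first.

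By the end of the course 5 of the 6 genes had values above those of the control. Across all genes tested, 32.4% were called higher at day 16 and 35.0% lower. Scara5 and Slc40a1 are counted with limits given below. By day 16 the level of Hmox1 was 12.4-fold that of the control, of Ftl1 4.53-fold and of Fth1 1.71-fold, as ratios of mean FPKM (reads scaled to transcript length and library size). Scara5 went from listed at 0 to 82.9 ± 3.65 FPKM (mean ± SD, n = 3, as in all group values below) and Slc40a1 from 0.116 ± 0.0402 to 4.32 ± 0.168. Tfrc took another course: it dropped at day 2, climbed to its highest mean at day 8 and was back near the control level at day 16. In bulk RNA, fewer cells that express a gene and less of its RNA per cell cannot be told apart.

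Read depth was not given. The stepwise spacing of values of genes under 0.3 FPKM put the depth of the starved libraries at 0.552 to 0.91 of the first control library, and that of the other controls at 0.955 and 0.902, as rough values. The part of this depth difference between control and starved libraries in the results was not tested. FPKM sums ran from 582501 to 785072. Once group means were taken away, libraries numbered replicate 1 lay at one end of the leading component, which held 28.7% of the remaining variance. Of 12 fibroblast markers, 10 reached 1 FPKM in some library, with Vim between 3753 and 5491 in group means. Col1a1, Col3a1, Fn1, Sparc and S100a4 had group means of 875 FPKM or more throughout. Pdgfra, Lum and Dcn were low, with highest group means of 1.29, 5.06 and 1.90 FPKM. Col1a2 was listed at 0 in all 30 libraries and Thy1 in 26. Fibroblasts are known for high Col1a2, so a 0 in this table can be a failed estimate and is not read as absence. Globin genes were at 0 throughout, which for the same reason is not read as absence.

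**Figure D1:**
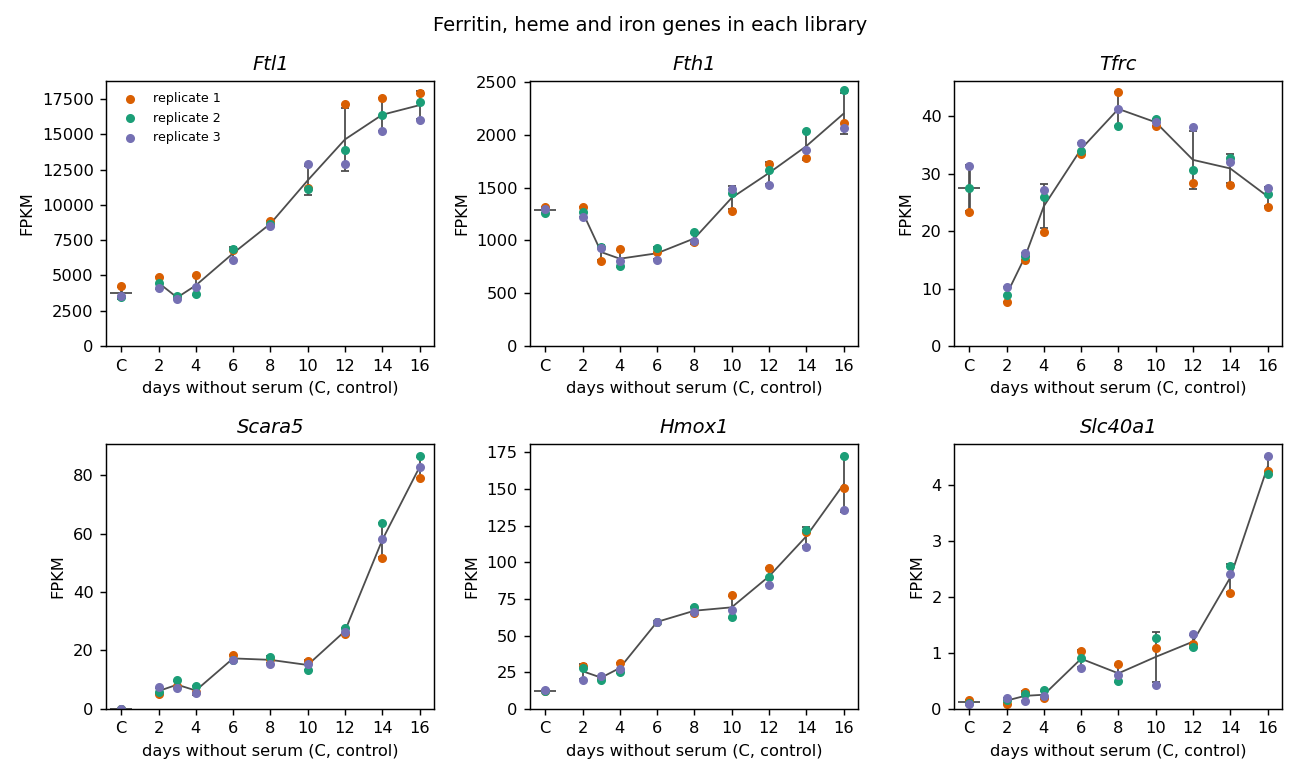
FPKM of the 6 genes (y axes, each with its own scale from 0) against days without serum (x axis; C, unstarved control). Each point is a library, its colour the replicate number; lines join the means of the starved groups and bars are SD over 3 libraries. Ftl1, Scara5, Hmox1 and Slc40a1 are highest at day 16, Fth1 dips to its lowest mean (827) at day 4 before it climbs, and Tfrc peaks at day 8 (41.2).

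Promoters of 2 of the 6 genes, Tfrc and Slc40a1, were matched by symbol in RefSeq (build GRCr8). They are shown because these genes bring iron in and let it out, and their RNA followed unlike courses. Each run is the 250 bases before the annotated start, 5′ to 3′ on the gene's strand, at chr11:81690319-81690568 for Tfrc and chr9:55543461-55543710 for Slc40a1, both on the minus strand. Capitals mark matches to the motifs searched.
Tfrc: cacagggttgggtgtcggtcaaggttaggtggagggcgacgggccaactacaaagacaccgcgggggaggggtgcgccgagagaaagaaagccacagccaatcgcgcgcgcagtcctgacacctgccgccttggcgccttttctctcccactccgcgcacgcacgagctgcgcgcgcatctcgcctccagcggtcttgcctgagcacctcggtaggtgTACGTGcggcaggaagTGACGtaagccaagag
Slc40a1: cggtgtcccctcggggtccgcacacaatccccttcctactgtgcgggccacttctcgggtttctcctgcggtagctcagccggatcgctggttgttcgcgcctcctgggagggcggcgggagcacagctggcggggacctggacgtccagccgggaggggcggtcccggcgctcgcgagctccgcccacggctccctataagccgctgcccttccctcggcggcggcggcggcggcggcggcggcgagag

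Searches on both strands covered ACGTG (the core bound by hypoxia-inducible factors), TACGTG (the same core with a T before it, which overlaps it), CACGTG (the E-box, which also holds the core), TGACNNNGC (the antioxidant response element), TATAAA and TGACG (the cyclic AMP response core). The Tfrc window held TACGTG 32 to 27 bases before the start and TGACG 16 to 12 bases before it. Among 33469 promoter windows of that length, TACGTG was in 2.95%, ACGTG in 16.6% and TGACG in 18.2%. No match to any of the 6 was found in the Slc40a1 window, which says only that these letters are not in it. TGACNNNGC, absent from both windows, was in 10.1% of all windows, CACGTG in 5.59% and TATAAA in 12.9%.

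After 2 days without serum Hmox1 had risen and Tfrc had fallen. Scara5 also passed as higher, but against control values listed at exactly 0, which may be failed estimates. The other 3 genes did not pass: their adjusted p was 0.0721 (Ftl1), 0.843 (Fth1) and 0.827 (Slc40a1). So 2 of 6, Scara5 included, were called higher and 1 lower, where 30% of the 8940 genes tested rose and 30.7% fell. Tests were made with limma on log2(FPKM + 1), with p adjusted over all genes tested and a threshold of 0.05, and changes on that scale are given as log2 ± SE. By day 16, 5 of 6 were above the control and none was below it, against 32.4% of all genes higher and 35.0% lower. Of these 5, Slc40a1 entered the test only through its high late groups, so its call is a description, and Scara5 was compared with 0s. Both comparisons use the same 3 control libraries.

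Scara5 was listed at 0 in each of the 3 control libraries. At day 2 it stood at 5.10, 5.84 and 7.31 FPKM in replicates 1, 2 and 3, and the test against those 0s passed (adjusted p = 4.56e-16). If the 0s are failed estimates, as a 0 in this table can be, the control level is unknown and the change from it too. No fold is given against a group at 0, since the fitted change depends on the added constant (from 1.14 with 5 FPKM added to 5.93 with 0.1 added, log2). Levels at day 3 were 7.80, 9.71 and 7.28 FPKM and at day 4 5.59, 7.93 and 5.27, all overlapping day 2 or each other. The next move came by day 6, with 18.6, 16.6 and 16.7 FPKM, above every earlier library. Then came a plateau: day 8 read 17.2, 17.7 and 15.5 FPKM and day 10 read 16.4, 13.1 and 15.5. From there the gene climbed without overlap between successive groups, to 25.7, 27.7 and 26.5 FPKM at day 12, to 51.9, 63.6 and 58.1 at day 14 and to 79.3, 86.6 and 82.7 at day 16. The level at day 16 was 13.6-fold that at day 2 and 4.94-fold that at day 8, as ratios of mean FPKM.

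Hmox1 read 12.0, 12.2 and 12.7 FPKM in the control libraries and 29.1, 27.9 and 19.9 at day 2, a rise of 0.98 ± 0.11 (adjusted p = 2.02e-08). It held near that level at day 3 (21.8, 19.6 and 22.3 FPKM) and day 4 (31.3, 25.3 and 26.9). Every control library lay below all of these. By day 6 it stood at 59.0, 59.5 and 59.5 FPKM, 2.13-fold the mean of day 4. Days 8 and 10 then overlapped each other, at 65.3, 69.5 and 66.1 FPKM and at 77.5, 62.7 and 67.6. The climb went on at day 12 (96.3, 90.3 and 84.6 FPKM), day 14 (121, 122 and 110.2) and day 16 (151, 173 and 136), again with no overlap between these 3 groups. Hmox2, the other heme oxygenase, read 23.6 ± 1.09 FPKM in the control, 20.7 ± 0.845 at day 2 and 24.1 ± 1.88 at day 16. Its change at day 2 did not pass (adjusted p = 0.112), and it rose with day by 0.35 ± 0.08 (adjusted p = 0.000502). In the control Hmox1 thus lay below Hmox2 per length, and at day 16 above it.

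Ftl1 was among the most abundant transcripts of these cells from the start. Control libraries read 4270.1, 3495 and 3522 FPKM, and those of day 2 4899.5, 4437 and 4096, which overlap. That change of 0.25 ± 0.12 did not pass. It did pass with replicate number as a block (0.25, adjusted p = 0.0229), without control replicate 1 (0.35, adjusted p = 0.0259), with replicates 2 and 3 only (0.28, 0.0252) and after upper quartile rescaling (0.35, 0.0203), and under quantile normalization it was -0.036 (0.899). Day 3 lay below every library of day 2, at 3459, 3529 and 3327 FPKM, and day 4 read 4999.8, 3699.9 and 4193. From day 6 each of 3 successive groups lay above the one before it: 6801, 6841 and 6062 FPKM, then 8833, 8654 and 8495 at day 8, then 11169.8, 11104 and 12905 at day 10. Later groups overlapped their neighbours, at 17168, 13853 and 12862 FPKM (day 12), 17553, 16353 and 15222 (day 14) and 17894, 17282 and 15989 (day 16). In control libraries Ftl1 ranked between 15 and 23 among all genes by FPKM, and from day 8 between 1 and 3. Its share of the FPKM sum went from 0.550% ± 0.0704 to 2.39% ± 0.310 at day 16.

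Fth1, the chain with the ferroxidase site, went down before it went up. Control libraries read 1315, 1256 and 1293 FPKM and day 2 1318, 1267 and 1221, a change of -0.02 ± 0.09. All 3 libraries of day 3 (808, 936 and 925 FPKM), day 4 (915, 757 and 809), day 6 (890.0, 929 and 817) and day 8 (985, 1078 and 994) lay below every library of control and day 2. At day 10 the gene was back in the control range or above it, at 1280.0, 1444 and 1484 FPKM. It reached 1724, 1665 and 1526 FPKM at day 12, 1784, 2036 and 1854 at day 14 and 2107, 2424 and 2066 at day 16, with no overlap between these groups. At day 16 the change against control was 0.77 ± 0.09 (adjusted p = 2.28e-08).

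The rat genome carries many copies of both ferritin genes: beside the genes themselves, RefSeq (GRCr8) has 21 further entries named after Ftl1, of which 15 are pseudogenes, and 6 named after Fth1, of which 5 are pseudogenes. None of these further symbols is in the FPKM table, and how reads that match several copies were assigned is not given in the sources used here. The ferritin levels are therefore uncertain to the extent that copies share reads.

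The 2 ferritin chains did not keep step. The ratio of Ftl1 to Fth1, both per length, was 2.92 ± 0.286 in the control, 3.52 ± 0.182 at day 2 and 5.18 ± 0.290 at day 4. It reached 7.48 ± 0.146 at day 6 and stayed between 7.79 and 8.90 in the means of days 8 to 16. Libraries of control and day 2 lay between 2.72 and 3.72, and those from day 6 on between 7.13 and 9.96. As a ratio of 2 of the genes chosen for this account, it is given as a description with no test.

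**Figure D2:**
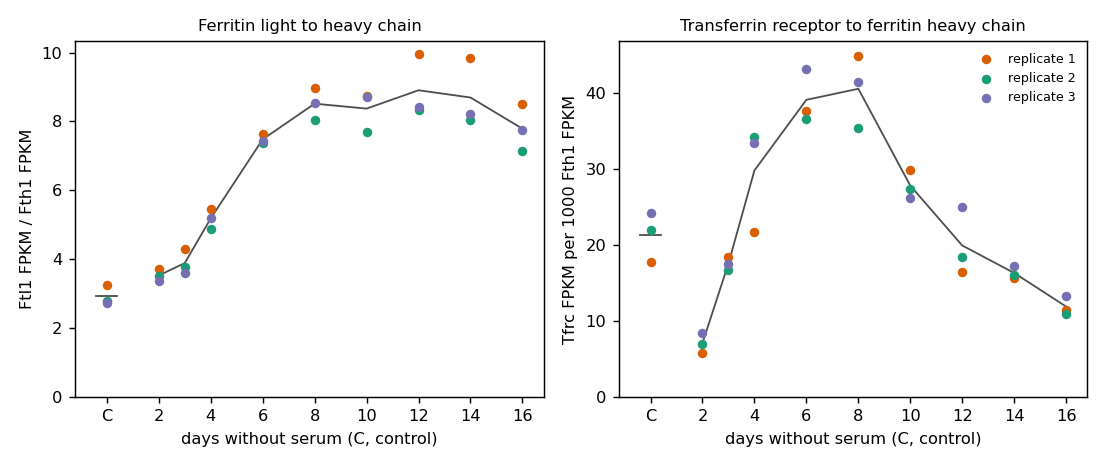
Ratios of FPKM in each library against days without serum (C, control): Ftl1 to Fth1 on the left, Tfrc per 1000 Fth1 on the right. Points are libraries coloured by replicate number and lines are group means. The light to heavy chain ratio climbs from 2.92 in the control to 8.51 at day 8 and then levels off, while Tfrc per 1000 Fth1 goes from 7.08 at day 2 to 40.6 at day 8 and down to 11.9 at day 16.

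Tfrc was the member that fell at entry. Control libraries read 23.4, 27.6 and 31.4 FPKM and day 2 7.70, 8.83 and 10.3, a fall of 1.51 ± 0.12 on the log2 scale (adjusted p = 2.59e-11). It then climbed by the day, to 14.9, 15.6 and 16.3 FPKM at day 3, 19.9, 25.9 and 27.1 at day 4 and 33.5, 34.0 and 35.4 at day 6, with no overlap between successive groups. Day 6 already lay above every control library. The highest values were those of day 8 (44.2, 38.2 and 41.3 FPKM) and day 10 (38.3, 39.6 and 38.9), which overlapped. A slow decline followed, through 28.4, 30.7 and 38.1 FPKM at day 12 and 28.0, 32.7 and 32.0 at day 14 to 24.2, 26.4 and 27.4 at day 16. Against control, day 16 differed by -0.07 ± 0.12 and did not pass (adjusted p = 0.638), and the sign of this difference turned under 3 of the alternative settings. Per 1000 FPKM of Fth1, Tfrc stood at 21.3 ± 3.29 in the control, 7.08 ± 1.30 at day 2, 40.6 ± 4.80 at day 8 and 11.9 ± 1.24 at day 16.

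Slc40a1 was close to the floor of the table for most of the course. It read 0.163, 0.0952 and 0.0908 FPKM in the control libraries and 0.0938, 0.158 and 0.187 at day 2, and day 3 (0.297, 0.263 and 0.134) and day 4 (0.193, 0.327 and 0.232) still overlapped each other. By day 6 it stood higher, at 1.03, 0.911 and 0.736 FPKM. Days 8 (0.790, 0.504 and 0.603 FPKM), 10 (1.09, 1.26 and 0.428) and 12 (1.16, 1.10 and 1.33) overlapped day 6 or their neighbours. The last 2 groups were clear of all others, with 2.07, 2.55 and 2.40 FPKM at day 14 and 4.25, 4.19 and 4.51 at day 16. It passed the filter for testing (an average of 1 FPKM or more across libraries) through its late groups. The day 16 level was 29.5-fold that of day 2 as a ratio of mean FPKM, but the fitted change between them was 2.21 ± 0.14 (log2), since 1 FPKM is added before taking logs. With 0.1 added it was 4.18 and with 5 added 0.86.

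Macrophages are rich in ferroportin and heme oxygenase 1. Of 12 macrophage markers in the table, 5 (Adgre1, Aif1, Mrc1, Cd163 and Tyrobp) were at 0 in all libraries and 8 never reached 1 FPKM. Here too a 0 is not read as absence. Their summed level ran from 7.40 to 7.87 FPKM in control libraries and from 1.47 to 2.85 at day 16. Within starvation it read 2.16 to 2.46 FPKM at day 2, 0.870 to 1.40 at day 8 and 1.64 to 3.20 at day 14. Slc40a1 and Hmox1 rose from day 2 to day 8 and again from day 8 to day 16. Lyz2, one of these markers, had a mean of 0 in the control and its highest mean, 1.14 FPKM, at day 16. Csf1r and Cd14 went the other way, from means of 4.33 and 2.82 FPKM in the control to 0.0631 and 0.828 at day 16. Among 7 epithelial markers Krt8 alone exceeded 1 FPKM, and with it their sum went from 10.9 to 12.9 FPKM in control libraries to 62.2 to 75.8 at day 16. The part of these markers in the results was not tested.

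During starvation all 6 genes varied among the 9 starved groups, with adjusted p from 3.47e-18 (Scara5) to 1.79e-12 (Slc40a1). That is common in these data, since 61.5% of all genes passed this test. From day 2 to day 16 all 6 were higher (20.7% of all genes were higher and 20.5% lower). Slc40a1 entered these tests, and those of the slope and the stretches below, only through its high late groups. Its calls in them are therefore descriptions. The changes were 3.58 ± 0.12 for Scara5, 2.54 ± 0.11 for Hmox1, 2.21 ± 0.14 for Slc40a1, 1.93 ± 0.12 for Ftl1, 1.45 ± 0.12 for Tfrc and 0.79 ± 0.09 for Fth1.

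A straight line over days 2 to 16 also rose for all 6, with the same limit for Slc40a1 (26.6% of all genes rose and 28.9% fell). The fitted change over 14 days was 3.37 ± 0.21 for Scara5, 2.68 ± 0.15 for Hmox1, 2.43 ± 0.15 for Ftl1, 1.92 ± 0.16 for Slc40a1, 1.24 ± 0.15 for Fth1 and 1.09 ± 0.29 for Tfrc, with adjusted p from 2.13e-14 (Hmox1) to 0.00247 (Tfrc). The Tfrc slope was lost without day 2 (0.49, adjusted p = 0.0911) and with time point means (1.09, 0.104), and over days 8 to 16 alone it was negative (-1.13 per 14 days, adjusted p = 3.87e-05). For Fth1 the slope over days 2 to 8 alone was -0.38 and did not pass (adjusted p = 0.489).

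Splitting the course at day 8 showed where each gene moved. Between day 2 and day 8, 5 genes rose and Fth1 fell (17.4% of all genes rose and 18.4% fell). Tfrc rose most, by 2.09 ± 0.12, followed by Hmox1 (1.37 ± 0.11), Scara5 (1.34 ± 0.12), Ftl1 (0.96 ± 0.12) and Slc40a1 (0.51 ± 0.14, adjusted p = 0.00462). The Fth1 change was -0.32 ± 0.09 (adjusted p = 0.00558), which did not pass with library sums made equal (-0.21, 0.0556) and under quantile normalization (-0.09, 0.461). The Slc40a1 call was lost with replicates 2 and 3 only (0.41, 0.126).

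Between day 8 and day 16, 5 genes rose and Tfrc fell (15.8% of all genes rose and 14.4% fell). Slc40a1 is counted among the 5 with the limit given above. Scara5 rose by 2.24 ± 0.12, Slc40a1 by 1.71 ± 0.14, Hmox1 by 1.18 ± 0.11, Fth1 by 1.11 ± 0.09 and Ftl1 by 0.98 ± 0.12, and Tfrc changed by -0.64 ± 0.12 (adjusted p = 0.000152). The Ftl1 call was lost under quantile normalization (0.07, adjusted p = 0.849), which sets values by rank, and Ftl1 ranked 1 to 3 in the libraries of both days.

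The change of the second stretch was also set against that of the first, a test that 29.4% of all genes passed. Fth1, Scara5 and Slc40a1 changed more after day 8 and Tfrc less, while Ftl1 (0.02 ± 0.21) and Hmox1 (-0.19 ± 0.19) did not pass (adjusted p = 0.957 and 0.485). Day 8 enters both stretches, so its libraries weigh on this difference from both sides.

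**Figure D3:**
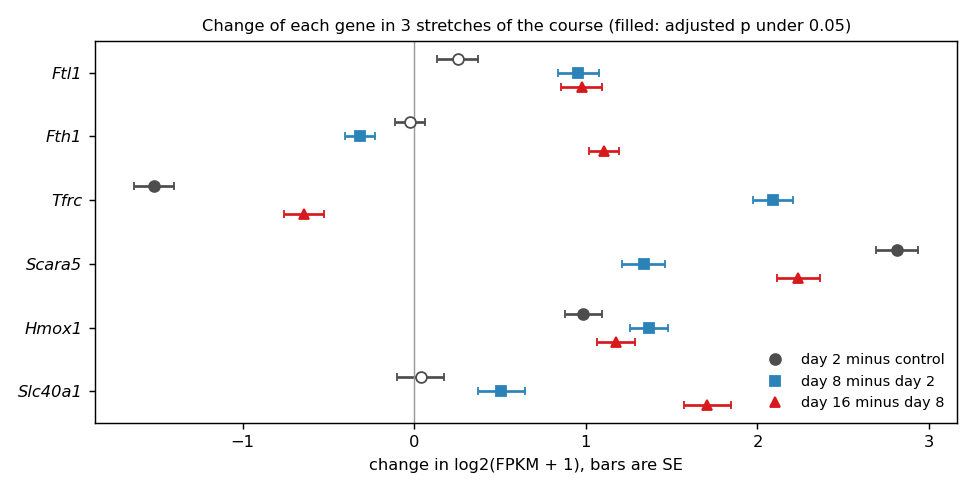
Change in log2(FPKM + 1) (x axis) of each gene (rows) between control and day 2, day 2 and day 8, and day 8 and day 16. Markers are limma estimates, bars are SE, and filled markers passed an adjusted p of 0.05. Tfrc moves left, right and left again (-1.51, 2.09 and -0.64), Fth1 moves right in the last stretch alone (1.11), and the Scara5 change at day 2 is from a control group listed at 0.

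Ordering the 10 groups by mean level showed which neighbours could not be told apart. For Hmox1 the pairs of day 10 with day 8, day 4 with day 2 and day 2 with day 3 had overlapping libraries, and every other neighbour in the order was separate. For Scara5 days 6, 8 and 10 overlapped in turn, as did days 3, 4 and 2. In the Ftl1 order, days 16, 14, 12 and 10 ran into each other and so did day 2, day 4, control and day 3. The Fth1 order had days 16, 14 and 12 as separate steps, control overlapping days 10 and 2, and days 3, 6 and 4 overlapping in turn. For Tfrc, day 8 overlapped day 10, and day 6, day 12, day 14, control, day 16 and day 4 overlapped in turn. In the Slc40a1 order days 12, 10, 6 and 8 overlapped in turn, as did day 4, day 3, day 2 and control.

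Over the 10 group means, on the log2 scale and among 7162 genes that averaged 5 FPKM or more (predicted-locus and clone-type symbols left out), the closest courses to Scara5 were those of Ap3s1 (Pearson r = 0.994), an adaptor subunit that sorts cargo to lysosomes, and of the lysosomal hydrolases Fuca1 (0.992) and Aga (0.988). Closest to Hmox1 were Rnf181 (0.993), Galk2 (0.993) and the autophagy protein gene Gabarapl2 (0.991). Ftl1 was most like Jak3 (0.992), Slco1a2 (0.988) and Bloc1s6 (0.987), the last coding for a subunit of a complex that builds lysosome-related organelles. Fth1 was most like Eif3k (0.980), Gltscr2 (0.974) and the ribosomal protein gene Rpl29 (0.972). Libraries of Eif3k spread widely and overlapped, at 65.7 to 132 FPKM in the control and 102 to 136 at day 16. Tfrc was most like the lactate dehydrogenase gene Ldha (0.963), then Ddx3x (0.949) and Clptm1 (0.942). For Slc40a1 they were Bcl6 (0.977), Tmem101 (0.976) and Rab3d (0.975). Among the 6 genes themselves, r ran from 0.123 (Fth1 with Tfrc) to 0.954 (Ftl1 with Hmox1). The points are 10 groups measured on the same libraries, so these values are descriptions with no p.

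Other genes of iron uptake did not share one direction. Of 19 listed, 10 were tested, Scara5 and Tfrc included: 5 rose and 3 fell at day 2 (median log2 change 0.24, against 4.36e-05 over all genes), and 5 rose and 1 fell with day. Over all genes tested, 30% rose and 30.7% fell at day 2, and 26.6% rose and 28.9% fell with day, and the list counts here and below are to be read against these shares. Steap3, the reductase that readies iron for export from the endosome, went the way of Tfrc at day 2, from 22.8 ± 1.74 to 6.55 ± 0.393 FPKM (adjusted p = 3.00e-12). It then rose with day and stood at 9.90 ± 0.875 at day 16, still under the control (adjusted p = 3.09e-09). Mcoln1, a lysosomal channel that lets iron out, rose from 30.4 ± 2.59 FPKM in the control to 49.6 ± 3.90 at day 2 and 90.9 ± 8.99 at day 16. The importers Slc11a2 and Slc39a14 did not pass at day 2 (adjusted p = 0.0512 and 0.690), and Slc39a14 rose with day by 0.32 ± 0.07 (adjusted p = 0.000343). Transferrin itself (Tf) and Tfr2 were too low to be tested.

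Of 4 tested genes of iron storage, both ferritin genes included, 1 rose and 1 fell at day 2, and 2 rose and 1 fell with day. Pcbp2, a chaperone that hands iron to ferritin, fell from 196 ± 6.13 to 153 ± 4.95 FPKM at day 2 and stood at 132 ± 5.28 at day 16. Ncoa4, the receptor that takes ferritin to the lysosome for breakdown, rose from 27.5 ± 0.478 to 32.7 ± 1.36 FPKM at day 2 (adjusted p = 0.00840), and its slope did not pass (adjusted p = 0.858). Of the 4 tested genes linked to iron export or its control, 3 rose at day 2 and Slc40a1 did not pass. They were the ferroxidase ceruloplasmin (Cp, 4.81 ± 0.127 to 10.7 ± 2.08 FPKM), the prion protein gene Prnp (166 ± 3.25 to 565 ± 16.6) and App (77.3 ± 9.62 to 258 ± 39.5). Hepcidin (Hamp), the hormone that takes ferroportin off the membrane, and the ferroxidase Heph were too low to be tested.

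Of 6 genes of the iron regulatory protein system, 1 rose and 2 fell at day 2, and 2 rose and 2 fell with day, which for the slope is near the 26.6% and 28.9% of all genes. Aco1, whose product turns into iron regulatory protein 1 when it loses its iron-sulfur cluster, rose by 0.33 ± 0.12 at day 2 (adjusted p = 0.0164) and then fell by 0.62 ± 0.08 over 14 days (adjusted p = 4.71e-07). Ireb2, iron regulatory protein 2, did not pass at day 2 (adjusted p = 0.728) and fell with day by 0.49 ± 0.14 (adjusted p = 0.00362). Fbxl5, the ligase adaptor that removes iron regulatory protein 2 when iron is plentiful, did not pass at day 2 (adjusted p = 0.704) and rose with day by 0.27 ± 0.08 (adjusted p = 0.00474). Skp1 and Rbx1, parts of the same ligase and of many others, fell at day 2 (428 ± 17.7 to 337 ± 5.73 and 154 ± 11.4 to 105 ± 5.76 FPKM). Skp1 then rose with day by 0.79 (adjusted p = 9.37e-10) to a mean of 523 FPKM at day 16, above the control (adjusted p = 0.0126), and the Rbx1 slope did not pass (adjusted p = 0.0821).

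**Figure D4:**
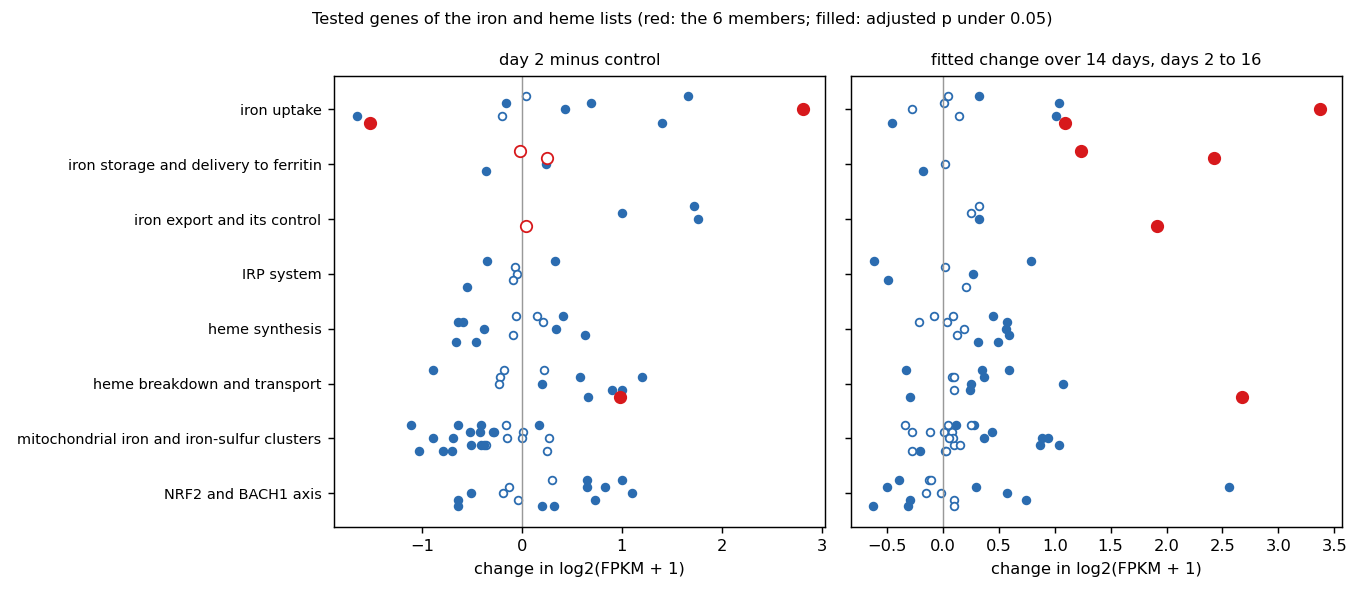
Change in log2(FPKM + 1) of every tested gene of 8 iron and heme lists (rows): day 2 against control on the left, fitted change over 14 days on the right. Each point is 1 gene, red for the 6 genes of this account and blue for others, filled where the adjusted p was under 0.05; vertical offsets only separate points. On the right the largest value of the uptake, storage, export and heme breakdown lists is one of the 6 genes (Scara5, Ftl1, Slc40a1 and Hmox1). The 6 genes and the lists were chosen with earlier results of these data known, so this is a description.

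Of 12 tested genes of heme synthesis, 3 rose and 5 fell at day 2 (median -0.07), and 6 rose and 0 fell with day, where 30% and 30.7% of all genes did at day 2 and 26.6% and 28.9% with day. Slc25a38, the mitochondrial glycine carrier that feeds the pathway, rose from 8.14 ± 1.48 to 13.2 ± 1.70 and then to 21.3 ± 1.39 FPKM. Tmem14c, a porphyrin carrier of the inner membrane, fell by 0.65 on the log2 scale at day 2 and rose by 0.49 with day, and Ppox, a late enzyme, fell by 0.38 and rose by 0.56. Of 12 tested genes of heme breakdown and transport, Hmox1 included, 7 rose and 1 fell at day 2 (median 0.40), and 7 rose and 2 fell with day. Slc48a1, which moves heme out of the lysosome, rose from 29.6 ± 1.18 to 69.6 ± 3.95 FPKM at day 2 and reached 96.3 ± 6.48 at day 16. Pgrmc2, a heme-binding protein, rose from a mean of 76.3 to 143 FPKM at day 2, and the folate and heme importer Slc46a1 did not pass then (adjusted p = 0.105) but rose by 0.59 with day. Blvrb, a biliverdin reductase that works after heme oxygenase, did not pass at day 2 (71.0 ± 1.38 and 60.6 ± 1.95 FPKM, adjusted p = 0.0568) and rose with day, to 132 ± 18.9 FPKM at day 16. Leaving out the 6 genes, 80 genes of all lists were tested, of which 27 rose and 29 fell at day 2 and 30 rose and 12 fell with day, with median changes of -0.07 and 0.10. The day 2 counts are close to the 30% and 30.7% of all genes.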

How the data were processed

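RNA of 30 libraries was sequenced by the submitters. The authors deposited 1 table of FPKM values for 17353 gene symbols. Per the submitters' processing notes the tools were TopHat2 (2.1.1), Cufflinks also Cuffnorm (2.2.1), and the build was rn6; the annotation, filters and scaling across libraries are not given in the sources used here. The table holds no counts, so no interval based on counts is given.

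Groups followed the sample titles. Genes that averaged 1 FPKM or more across libraries were kept (8940) and values were taken as log2(FPKM + 1). Group means, and the slope over days 2 to 16, were fitted across all genes with limma 3.58.1 in R 4.3.3 (empirical Bayes with trend). Tests were two-sided, and p was adjusted by the Benjamini-Hochberg method over all genes kept, with a threshold of 0.05. The fits had no replicate block. The code was tested on simulated data.

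The 6 genes and the lists were chosen with earlier results of these data known. All 6 are named, with 12 other iron genes, the 3 smallest p per list and comparison among genes that passed, and the 3 genes most like each of the 6. List genes not tested are named at most as such. Some list genes that met the rule are not reported here. Alternatives were other added constants, filters and scalings, a replicate block, no trend, single libraries or time points left out, replicates 2 and 3 only, parts of the course and log2 of day.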

Additional observations from a re-analysis of the deposited data

Results flagged for a closer look

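For 4 of the 6 genes the change from day 8 to day 16 differed from that from day 2 to day 8 (limma, log2 change of the second stretch minus the first ± SE). Across all genes tested, 29.4% passed this test. The difference was 1.42 ± 0.15 for Fth1 (adjusted p = 5.32e-08) and 0.90 ± 0.21 for Scara5 (adjusted p = 0.00220). It was 1.20 ± 0.24 for Slc40a1 (adjusted p = 0.000323), a gene that passed the filter for testing only through its high late groups, and -2.74 ± 0.20 for Tfrc (adjusted p = 8.69e-11). Fth1 and Tfrc changed sign between the stretches, in opposite ways. The Scara5 difference did not pass after rescaling to equal sums (0.62, adjusted p = 0.0691), nor the Slc40a1 difference with 0.1 FPKM added in place of 1 (1.04, adjusted p = 0.175).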

How the results depend on the processing

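Of 1066 values of the 6 genes recomputed under alternatives, 1038 kept their side of the threshold and, where they have one, their direction. Of the rest 16 changed sign, and without a change of sign 8 lost and 4 gained a call. Among the 16, the Fth1 slope over days 2 to 8 also lost its call. The Ftl1 difference between stretches gained one under quantile normalization. All the tests of Hmox1 were among those that kept both. At day 2 the Fth1 change was 0.079 with upper quartile rescaling and 0.050 with quantile normalization, and -0.050 to 0.0052 with 1 library left out. The Ftl1 change was 0.35, -0.036, 0.25 and 0.28 with upper quartile rescaling, quantile normalization, the replicate block and replicates 2 and 3 only (adjusted p = 0.0203, 0.899, 0.0229 and 0.0252), and 0.19 to 0.35 with 1 library left out. The Slc40a1 change was -0.18 with quantile normalization. For Tfrc, day 16 against control was 0.047 with upper quartile rescaling, 0.064 with quantile normalization and -0.17 to 0.033 with 1 library left out. The Ftl1 difference between stretches was -0.25 with equal sums, -1.27 with quantile normalization (adjusted p = 0.0133), -0.053 with replicates 2 and 3 only and -0.046 to 0.083 with 1 library left out. Slopes over 14 days were -0.38 for Fth1 over days 2 to 8, and for Tfrc -1.13 over days 8 to 16, 1.09 with time point means and 0.49 without day 2. Genes called for the slope numbered 4964, and 2838 and 3021 over days 2 to 8 and 8 to 16. These shorter fits hold fewer libraries and fewer days, and the part of either in the counts was not tested. Equal sums moved the median slope of all genes from -0.017 to -0.14, and the slopes of all 6 genes kept their direction and call under it.

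Same-numbered libraries deviated together in 97 of 135 pairs (r over 0.1), and 23 of 30 libraries correlated best with their own number, a hint from the data alone. It was uneven: 44 of 45 pairs of replicate 1 were over 0.1, 22 of 45 of replicate 2 and 31 of 45 of replicate 3. The replicate block gave 5900 calls at day 2 in place of 5425, and changed no call of the 6 genes other than that of Ftl1 at day 2. Low levels limit Slc40a1, which reached at most 0.327 FPKM up to day 4, and Scara5, listed at 0 in the control.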

Other observations

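Iron-sulfur clusters are prosthetic groups made largely in mitochondria. Of 23 tested genes of mitochondrial iron and cluster assembly, 15 fell, 1 rose and 7 did not pass at day 2 (median -0.41), and with day 8 rose and 1 fell. Over all genes tested, 30% rose and 30.7% fell at day 2, and 26.6% rose and 28.9% fell with day. The cytosolic assembly factor Nubp1 fell from 64.8 ± 3.35 to 31.5 ± 5.59 FPKM and was at 26.3 ± 2.35 at day 16. The scaffold gene Iscu did not pass at day 2 (117 ± 3.61 and 117 ± 5.59 FPKM, adjusted p = 0.994) and rose with day to 203 ± 24.4. Ciapin1 fell by 0.79 on the log2 scale at day 2, and Nfu1, which carries clusters to target enzymes, rose by 0.87 with day. The mitochondrial chaperone gene Hspa9 fell to 75.3 ± 7.70 FPKM at day 2 and rose to 148 ± 8.79 at day 16.

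Hmox1 and both ferritin genes are known targets of the oxidative stress factor NRF2 (Nfe2l2) and its competitor BACH1. Of 15 tested genes of that axis 8 rose and 3 fell at day 2 (median 0.31), where 30% of all genes rose and 30.7% fell. With day 4 rose and 5 fell (median -0.11), near the 26.6% and 28.9% of all genes. Nfe2l2 itself rose from 111 ± 6.40 to 139 ± 4.77 FPKM at day 2, and fell with day to 99.1 ± 3.40. Its inhibitor Keap1 rose at day 2 by 0.20 ± 0.08 (adjusted p = 0.0359), and Bach1 did not pass (adjusted p = 0.0963). Nqo1, a quinone reductase, rose from 197 ± 1.62 to 398 ± 38.0 FPKM at day 2 and fell with day to 277 ± 18.3, while Hmox1 rose in both comparisons. Me1, malic enzyme, likewise rose by 0.73 at day 2 and fell by 0.30 with day, and the small MAF gene Mafk rose by 1.11 at day 2. Txnrd1, thioredoxin reductase, fell in both, from 82.5 ± 6.52 through 52.7 ± 5.99 to 39.5 ± 1.53 FPKM. Osgin1 rose in both, from 0.253 ± 0.143 through 1.26 ± 0.564 to 7.21 ± 1.60 FPKM, and the sulfiredoxin gene Srxn1 did not pass at day 2 (adjusted p = 0.582) and rose with day to 33.4 ± 1.16. The part of this axis in the levels of Hmox1 and the ferritin genes was not tested.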
